A study of Homo sapiens with 15 samples.

Results

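The genes described here are the protein-coding genes of chromosome 15 that HEK293T cells expressed. HEK293T is a line derived from human embryonic kidney. The chromosome was chosen by the log2 differences of the clones to the control, since its genes were higher in 2 of the knockout clones than in the control cells. A gene was a member when GENCODE v29 (GRCh38) lists it as protein-coding on chromosome 15 and when it reached at least 0.5 FPKM, a count of fragments per length of exon and per size of the library, in at least 3 of the 15 libraries. Of 600 protein-coding genes on the chromosome, 397 were members, 203 stayed under the threshold, and 51 of these were listed at 0 in every library. The members just inside were FAM227B, with 0.513 FPKM in the library that decides the rule, the one ranked 3 by its level, and JMJD7-PLA2G4B with 0.527, and the genes just outside were GOLGA8T with 0.499 and PRC1 with 0.488. The files hold 58735 genes, 16175 of which passed the same threshold, 12375 of them protein-coding.

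RNA was sequenced from 5 groups of HEK293T cells in 3 culture wells each. The MLPH-CKO, MAGI2-CKO, C9orf89-CKO and RHBDD2-CKO cells each received lentiCRISPRv2 with a guide against the named gene, and the Non-target cells, labelled WT, received lentiCRISPRv2 with a guide that has no target. All 5 were selected with puromycin and were grown as clones by limiting dilution, so that each group is 1 clone and the wells do not cover the spread between clones. The titles number the wells as biological replicates, the methods describe wells of a plate, and p-values measure only the spread between such wells. All 4 clones are compared with the same 3 Non-target wells. A library held 15517856 to 19489918 fragments on genes, and 393324 to 640638 of them were on the members.

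Chromosome 15 is acrocentric, which means that its genes lie on the long arm, 15q. The first stretch of that arm, 15q11 to q13, holds genes that are expressed from only 1 parental copy, and blocks of duplicated sequence flank it. Neighbouring genes along a chromosome share their DNA template but have promoters of their own, so RNA along a chromosome can be read both as a level shared by many genes and as single genes that leave it. HEK293T is known as an aneuploid line. No DNA was measured in the files used here.

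The 2 guides that made the clones with higher values are shown first because neither of their target genes lies on chromosome 15. They come from the guide table of the study and are written 5′ to 3′ without the cloning overhang.
MLPH: gtcttacctccgggtccgcc
MAGI2: tgacaacctctacctccgca
The MAGI2 guide matched chr7:79007099-79007118 (GRCh38, minus strand) in exon 2 of 6 annotated transcripts of MAGI2, in the coding sequence of 4 of them, and a cgg follows it there as the PAM. The MLPH guide had no full match within the spliced transcripts of MLPH, and its position was not analysed here. In the spliced transcripts of the 397 members, the best match next to an NGG had 5 mismatches for the MLPH guide and 4 for the MAGI2 guide. Intron sequence was not searched.

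The targeted genes were looked at in every library. MLPH, which links melanosomes to their motor, was listed at 0 in all 15 libraries, and MAGI2, a scaffold of cell junctions, had 32 to 68 fragments in each, so that neither checks its label. CARD19, the present symbol of C9orf89, had 4.32 FPKM in C9orf89-CKO and 6.56 in Non-target on average over 3 wells, and 4.79 in RHBDD2-CKO. RHBDD2, a rhomboid-like membrane protein, had 12.4 FPKM in RHBDD2-CKO, 33.5 in Non-target and 13.8 in MAGI2-CKO. Of 8 markers of HEK293T cells, 8 reached 0.5 FPKM in every Non-target, MLPH-CKO and C9orf89-CKO library and 7 in every MAGI2-CKO and RHBDD2-CKO library. NEFM, a neurofilament gene, was the one missing in MAGI2-CKO, at a mean of 0.0274 FPKM. None of 8 blood cell markers reached 0.5 FPKM in any library; their sum ran from 0.179 to 0.629 FPKM, SPI1 had the highest mean in Non-target and MPO was at 0. Of 6 mesenchymal markers, summed at 3.05 to 5.83 FPKM, COL1A1 was the most abundant. In Non-target 2 to 3 of them reached 0.5 FPKM, and in every other library 1 did. The mean of COL1A1 was 2.43 FPKM in Non-target and 3.28 to 4.75 in the knockout clones. COL3A1 went the other way, from 1.29 to 0.13 to 0.35, and so did LUM, from 0.71 to 0.013 to 0.28. The well numbered 1 stood apart in every group. Between it and the other wells the chi-square of the fragments averaged 15.95 to 27.4 over genes, whereas the other wells of a group differed from each other by 2.46 to 7.05.

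Across the 397 members the median difference to Non-target, on the log2(FPKM + 0.1) scale, was 0.42 in MLPH-CKO and 0.37 in MAGI2-CKO. These differences chose the members and are given without a test. The quartiles of the members lay at 0.20 and 0.61 in MLPH-CKO and at 0.15 and 0.58 in MAGI2-CKO. Well by well, the median was 0.44, 0.40 and 0.38 in MLPH-CKO and 0.39, 0.36 and 0.37 in MAGI2-CKO; the wells of a clone stood close together. In the 3 Non-target wells, set against their own mean, it was 0.011, -0.0099 and 0.0071. It was 0.016 in C9orf89-CKO and 0.052 in RHBDD2-CKO. The 11499 protein-coding genes of the other autosomes had medians of -0.04 in MLPH-CKO, -0.05 in MAGI2-CKO, -0.013 in C9orf89-CKO and -0.0080 in RHBDD2-CKO. Without the wells numbered 1, the members' medians were 0.40 in MLPH-CKO and 0.36 in MAGI2-CKO. More cells with a high level and more RNA per cell cannot be told apart in such bulk values.

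**Figure D1:**
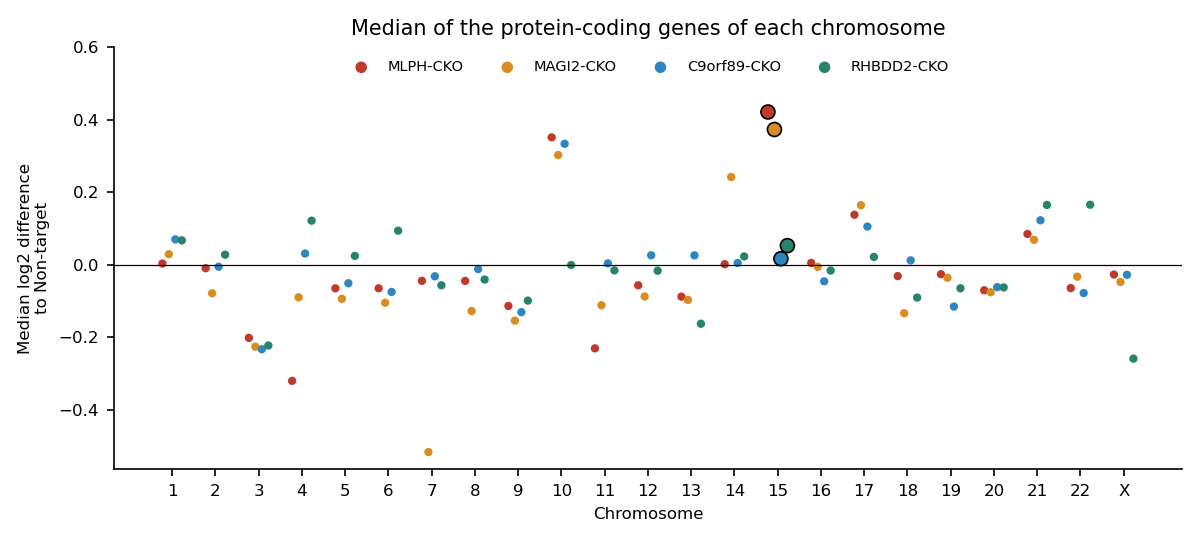
Each point is the median log2 difference to Non-target (vertical axis, log2 units) of the protein-coding genes of 1 chromosome (horizontal axis) in 1 clone, and the outlined points mark chromosome 15. In MLPH-CKO and MAGI2-CKO chromosome 15 stands above every other chromosome, at 0.42 and 0.37, and in C9orf89-CKO and RHBDD2-CKO it lies near 0.

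Among the 23 chromosomes with a value, the plot of medians by chromosome places chromosome 15 first in MLPH-CKO and MAGI2-CKO, eighth in C9orf89-CKO and sixth in RHBDD2-CKO. Chromosome 10 came next in both of the first clones, at 0.35 and 0.30, and stood at 0.33 in C9orf89-CKO as well. In MLPH-CKO 351 members (88.4%) lay above 0, against 46.1% of all protein-coding genes, and in MAGI2-CKO 340 (85.6%), against 45.3%. In MLPH-CKO all 3 wells were above all 3 Non-target wells for 274 members (69.0%), and 21.3% of all protein-coding genes met the same rule. In MAGI2-CKO this held for 248 members (62.5%) beside 22.5%, and in both clones at once for 217 (54.7%) beside 13.3%. The opposite order, all wells below, was found for 11 members in MLPH-CKO, where 24.9% of protein-coding genes met it, and for 19 in MAGI2-CKO, where 29.4% did. Nothing is read from these shares, since the same differences chose the members.

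**Figure D2:**
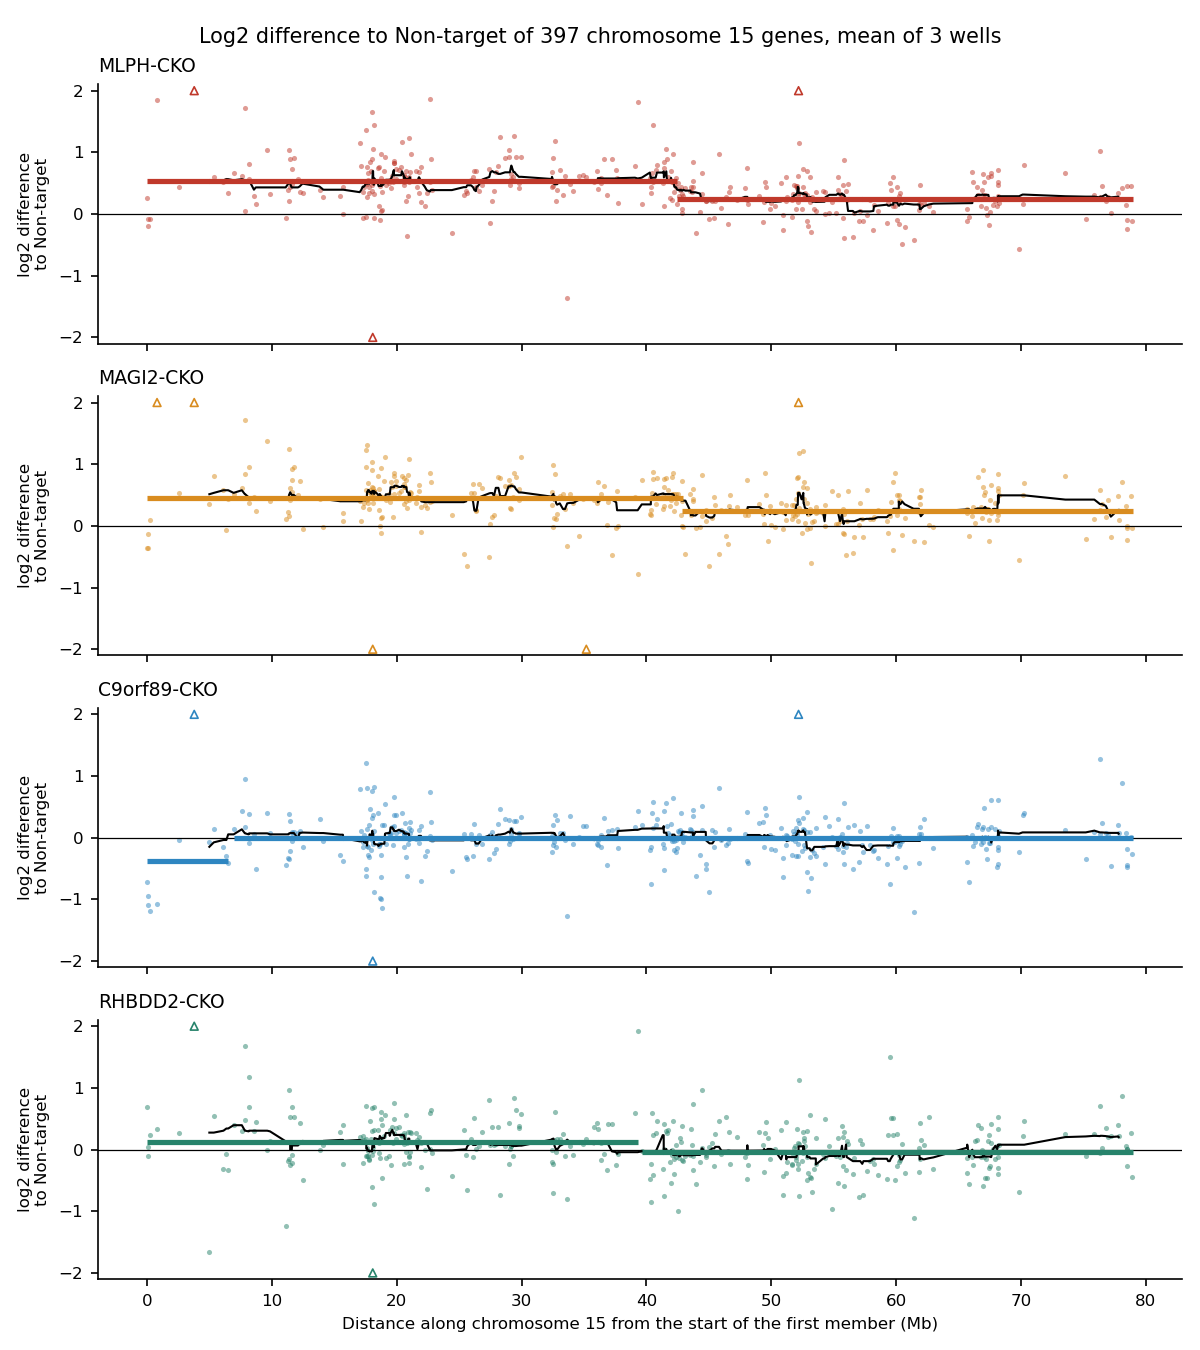
Each point is 1 of 397 members, placed by the distance of its start from that of the first member (horizontal axis, Mb) and by its log2 difference to Non-target (vertical axis), with open triangles for the few members beyond 2 in either direction. The black line is the running median over 15 members and the coloured bars are the means of the fitted pieces, which in MLPH-CKO and MAGI2-CKO stay above 0 from end to end and step down once.

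The fitted pieces were raised along the whole measured chromosome in both clones, but the fit cannot place the ends more finely than its smallest piece. A piecewise-constant fit along the order of the members, with pieces of at least 10 members, placed the start of the raised stretch at the first member, NIPA1 (chr15:22773063-22829791), and its end at the last, TARSL2 (chr15:101653598-101724604), in MLPH-CKO and in MAGI2-CKO. Since no alternative allowed a piece of fewer than 5 members, none could have moved an end past a few low members, and that all of them gave the same ends shows nothing about the ends themselves. Single members there were not raised: 2 of the first 4 and 3 of the last 4 members were below 0 in both clones, NIPA1 stood at -0.36 in MAGI2-CKO with every well below Non-target, and TARSL2 stood at -0.12 and -0.03. NIPA1 codes for a magnesium transporter and TARSL2 for a threonyl-tRNA synthetase. Within the stretch the fit found 1 step down in each clone. In MLPH-CKO the 208 members from NIPA1 to CLPX, which ends at 65185342, had a median of 0.54, and the 189 members from PARP16, which starts at 65234460, to TARSL2 had a median of 0.25. In MAGI2-CKO the step lay between SLC24A1 and DENND4A, whose annotated ends overlap at 65658046 to 65660995, with a median of 0.48 over the 215 members before it and 0.24 over the 182 after it. RHBDD2-CKO also stepped down once, between C2CD4A, which ends at 62070917, and TLN2, which starts at 62390526. Its median was 0.125 over the 182 members before that step and -0.055 over the 215 after it. A step down was thus not particular to MLPH-CKO and MAGI2-CKO.

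The step kept to a narrower stretch in MLPH-CKO than in MAGI2-CKO. In MLPH-CKO each of the 3 wells, each well left out and every other setting put it between 65185342 and 66702228. In MAGI2-CKO it moved to the pair PIGBOS1 and PIGB, which overlap at 55318960 to 55319161 on opposite strands, with replicate 2 alone, without MAGI2-CKO replicate 1, without Non-target replicate 3, without the wells numbered 1, or with differences capped at 2 in place of 1. It moved to the gap between SPG11 and B2M, 44663678 to 44711487, with replicate 3 alone or without Non-target replicate 2. In windows of 10 Mb the MAGI2-CKO median went from 0.53 over the 89 members that start between 40 and 50 Mb to 0.44 over 45, 0.39 over 64 and 0.22 over 73 members in the next 3 windows. The MLPH-CKO medians of the same windows were 0.52, 0.58, 0.44 and 0.27. From 80 to 90 Mb they were 0.18 in MLPH-CKO and 0.26 in MAGI2-CKO over 46 members. The first and last windows held 13 and 9 members and are too thin to be ranked.

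CLPX and PARP16 stand on either side of the MLPH-CKO step. CLPX is the ATPase of a mitochondrial protease. It had 10.9, 10.2 and 10.4 FPKM in the Non-target wells, 17.6, 14.8 and 15.3 in MLPH-CKO and 16.4, 15.2 and 13.6 in MAGI2-CKO. Both clones lay clear of Non-target, by 0.59 and 0.51 on the log2 scale. PARP16, an ADP-ribosyltransferase of the endoplasmic reticulum, had 4.90, 5.04 and 6.01 FPKM in Non-target, 4.97, 6.39 and 6.61 in MLPH-CKO and 6.97, 8.01 and 7.17 in MAGI2-CKO. Its MLPH-CKO wells overlapped with Non-target (0.16) and its MAGI2-CKO wells did not (0.47). Just before CLPX, PDCD7, a protein of the minor spliceosome, differed by 0.43 and 0.37, and beyond PARP16, IGDCC3, a membrane protein of the immunoglobulin superfamily, differed by 0.50 and 0.52, so that single members near the step do not order themselves by it.

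Around the MAGI2-CKO step, INTS14, a subunit of the Integrator complex, had 25.5, 25.8 and 26.6 FPKM in Non-target and 34.1, 35.6 and 33.9 in MAGI2-CKO. SLC24A1, a sodium, calcium and potassium exchanger, had 2.76, 2.67 and 2.15 in Non-target and 4.88, 3.74 and 4.08 in MAGI2-CKO. Both were higher in every MAGI2-CKO well. DENND4A, an exchange factor for Rab proteins, had 3.18, 2.61 and 3.17 FPKM in Non-target and 3.24, 2.99 and 2.72 in MAGI2-CKO, and RAB11A, a GTPase of recycling endosomes, had 32.7, 31.2 and 31.3 beside 33.3, 29.8 and 31.4. Neither stood apart from Non-target there.

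The same values can be given as the share of fragments on each side of CLPX and PARP16, which is a description in another unit and no further support for the split. The 208 members before the step took 0.814% ± 0.0333 (SD, n = 3) of all autosomal protein-coding fragments in Non-target, 1.20% ± 0.0127 in MLPH-CKO and 1.13% ± 0.0498 in MAGI2-CKO, a ratio of 1.48 and 1.39 to Non-target. The 189 members after it took 1.97% ± 0.00965 in Non-target, 2.52% ± 0.0490 in MLPH-CKO and 2.48% ± 0.0118 in MAGI2-CKO, a ratio of 1.28 and 1.26. In C9orf89-CKO the shares were 0.810% and 1.99%, and in RHBDD2-CKO 0.885% and 1.87%. In MLPH-CKO and MAGI2-CKO every well lay above every Non-target well in both parts.

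**Figure D3:**
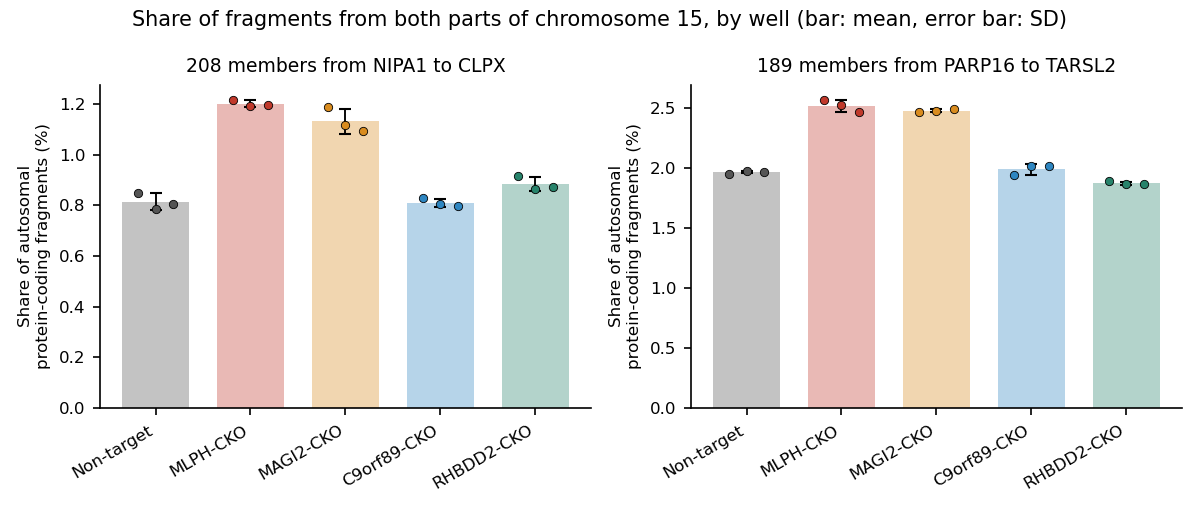
Bars show the mean share of autosomal protein-coding fragments (vertical axis, percent) that fell on the 208 members up to CLPX (left) and on the 189 members from PARP16 on (right) in each of the 5 groups, with the SD as error bar and 1 point per well. The MLPH-CKO and MAGI2-CKO wells lie between 1.09% and 1.22% on the left and between 2.47% and 2.57% on the right, above all other wells.

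The members were also divided into 3 bins of like size by level and by length. Before the step, the MLPH-CKO medians were 0.61, 0.58 and 0.50 from the lowest to the highest bin of mean FPKM and 0.52, 0.56 and 0.53 from the shortest to the longest bin of exon length. After it they were 0.27, 0.23 and 0.25 by level and 0.22, 0.25 and 0.28 by length. In MAGI2-CKO the bins by level were 0.61, 0.52 and 0.42 before the step and 0.27, 0.23 and 0.24 after it. A gene with a low level can be a member through its rise alone, so that the rule itself can lift the lowest bins. MKRN3, ELL3 and JMJD7-PLA2G4B, for example, reached 0.5 FPKM only in MLPH-CKO and MAGI2-CKO wells. Nothing is read from the order of the bins by level. In these protein-coding bins each median before the step was above each one after it, as the choice of the split favours. The 139 genes of chromosome 15 that are not protein-coding and passed the threshold had medians of 0.47 in MLPH-CKO and 0.49 in MAGI2-CKO, beside 0.13 and 0.25 over the 3503 such genes of the other autosomes. They did not show the same step: the 65 before it stood at 0.50 in MLPH-CKO and 0.47 in MAGI2-CKO, and the 74 after it at 0.44 and 0.59, so that in MAGI2-CKO the order was the opposite one.

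The members with the highest levels did not all rise alike. RPL4, a protein of the large ribosomal subunit, had 500, 564 and 543 FPKM in the Non-target wells, 807, 715 and 665 in MLPH-CKO and 701, 727 and 745 in MAGI2-CKO. RPLP1, of the ribosomal stalk, had 498, 501 and 456, then 744, 658 and 579, and 727, 650 and 683. For both genes no well of these clones overlapped with Non-target. NOP10, of the box H/ACA ribonucleoproteins, differed by 0.53 in MLPH-CKO and 0.74 in MAGI2-CKO. PKM, the pyruvate kinase of glycolysis, differed by 0.20 and 0.03, and COX5A, of cytochrome oxidase, by 0.20 and 0.08, and the wells of both clones overlapped with Non-target for COX5A.

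Among members with a mean of at least 1 FPKM a few were far above the rest. RPP25, a subunit of RNase P and RNase MRP, had 5.50, 8.24 and 8.22 FPKM in Non-target, 52.0, 59.8 and 60.3 in MLPH-CKO, 46.6, 52.1 and 60.1 in MAGI2-CKO, 38.9, 40.9 and 49.4 in C9orf89-CKO and 14.3, 17.0 and 16.1 in RHBDD2-CKO. SCAMP5, a membrane protein of secretory vesicles, had 4.59, 4.73 and 4.63 in Non-target, 10.3, 10.1 and 10.96 in MLPH-CKO and 9.87, 11.02 and 11.3 in MAGI2-CKO. Both genes had their highest means in MLPH-CKO and MAGI2-CKO, followed by C9orf89-CKO, whose highest RPP25 well overlapped with MAGI2-CKO.

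Further members of this kind were ANKRD63, an ankyrin repeat gene (1.36 and 1.23), LTK, a receptor tyrosine kinase (0.97 and 0.94), and GOLGA8B, a golgin (0.91 and 0.96). GOLGA8B belongs to a family of near-identical copies, among which reads can be shared, so that its value is uncertain. ANKRD63 had 12 to 22 fragments per Non-target well. It stood at 1.20 in C9orf89-CKO, with every well above Non-target, and at 0.71 in RHBDD2-CKO. In RHBDD2-CKO LTK stood at 0.61 and GOLGA8B at 0.52, both without overlap with Non-target. In C9orf89-CKO these genes stood at -0.27 and 0.09. High values of these members were thus not particular to MLPH-CKO and MAGI2-CKO.

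RPP25 and SCAMP5 are neighbours whose annotated ends overlap, from 74957219 to 74957464, on opposite strands. The library kit named in the labels does not mark strand, and reads from the overlap cannot be told apart. Their promoters are shown because these neighbours had higher values together, those of CLPX and PARP16 because the step lies between them, and those of CYFIP1 and TMED3 because these members did not follow. The sequences are RefSeq's, for GRCh38.p14, from 250 bases before to 50 after the transcript start, 5′ to 3′ along the gene. Capitals mark the GC box GGGCGG, the CCAAT box CCAAT, the TATA box TATAAA and the ETS core CGGAAG on either strand; the GC box and the ETS core can overlap.
RPP25: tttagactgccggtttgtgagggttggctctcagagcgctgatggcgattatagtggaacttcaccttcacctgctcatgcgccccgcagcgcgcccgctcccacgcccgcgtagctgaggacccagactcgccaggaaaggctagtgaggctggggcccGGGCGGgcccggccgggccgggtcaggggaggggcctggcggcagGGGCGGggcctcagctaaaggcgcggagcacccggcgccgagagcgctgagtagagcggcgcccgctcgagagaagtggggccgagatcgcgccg
SCAMP5: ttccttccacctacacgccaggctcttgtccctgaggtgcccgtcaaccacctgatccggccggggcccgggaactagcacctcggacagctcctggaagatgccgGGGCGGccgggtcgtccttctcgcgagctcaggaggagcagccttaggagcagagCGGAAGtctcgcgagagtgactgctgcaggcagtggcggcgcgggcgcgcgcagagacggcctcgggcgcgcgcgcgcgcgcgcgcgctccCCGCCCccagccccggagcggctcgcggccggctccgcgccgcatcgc
CLPX: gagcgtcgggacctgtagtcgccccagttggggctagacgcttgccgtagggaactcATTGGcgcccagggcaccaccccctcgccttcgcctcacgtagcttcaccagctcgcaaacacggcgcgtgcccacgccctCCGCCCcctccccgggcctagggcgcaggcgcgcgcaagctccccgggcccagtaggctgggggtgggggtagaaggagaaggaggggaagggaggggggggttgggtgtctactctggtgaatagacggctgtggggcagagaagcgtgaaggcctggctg
PARP16: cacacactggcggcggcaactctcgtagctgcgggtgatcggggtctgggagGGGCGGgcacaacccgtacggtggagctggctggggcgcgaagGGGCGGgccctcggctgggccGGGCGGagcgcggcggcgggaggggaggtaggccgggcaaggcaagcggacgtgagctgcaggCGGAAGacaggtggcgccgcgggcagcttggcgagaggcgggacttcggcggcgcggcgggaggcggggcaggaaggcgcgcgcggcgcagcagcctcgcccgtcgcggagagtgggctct
CYFIP1: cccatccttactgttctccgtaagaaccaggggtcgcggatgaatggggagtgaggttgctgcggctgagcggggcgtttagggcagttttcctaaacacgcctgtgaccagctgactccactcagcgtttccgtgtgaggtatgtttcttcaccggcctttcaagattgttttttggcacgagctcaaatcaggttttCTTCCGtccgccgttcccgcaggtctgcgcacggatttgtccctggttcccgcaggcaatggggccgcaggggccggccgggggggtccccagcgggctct
TMED3: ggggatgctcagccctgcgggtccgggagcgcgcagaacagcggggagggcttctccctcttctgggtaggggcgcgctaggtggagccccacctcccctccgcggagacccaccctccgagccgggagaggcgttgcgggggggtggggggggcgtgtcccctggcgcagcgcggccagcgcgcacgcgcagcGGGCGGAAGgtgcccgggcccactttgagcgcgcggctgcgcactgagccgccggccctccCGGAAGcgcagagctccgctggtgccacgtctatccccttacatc
RefSeq's start is not always the outermost one in GENCODE. The windows of RPP25, SCAMP5 and PARP16 lie inside the annotated genes. Those of RPP25 and SCAMP5 lie outside the stretch where these genes overlap. The windows are chr15:74956723-74957022 (minus strand), chr15:74995313-74995612 (plus), chr15:65185293-65185592 (minus), chr15:65286834-65287133 (minus), chr15:22980849-22981148 (minus) and chr15:79310862-79311161 (plus) in that order. RPP25 and SCAMP5 have 2 GC boxes each, CLPX has 1 with 1 CCAAT box, PARP16 has 3, and SCAMP5 and PARP16 each hold 1 ETS core. CYFIP1 holds no GC box and 1 ETS core, and TMED3 holds 1 GC box and 2 ETS cores. A promoter was matched for 348 of the 397 members. The GC box is found in 71.8% of these and in 44.95% of the 35116 windows of the whole table, the CCAAT box in 36.5% and 34.6%, the TATA box in 4.60% and 11.5%, and the ETS core in 32.2% and 19.5%. These are matches of letters only. The members had to pass the expression threshold, and of their windows only the nearest to the annotated start was taken. The whole table was not filtered in this way, so that the shares are not of like sets and nothing is read from their gap. The GC box was found in 72.8% of 279 matched members above 0 in both clones and in 80% of 20 below 0 in both.

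Not every member followed. Of 397 members, 318 were above 0 in both clones, 55 were split between them, and 24 (6.05%) were below 0 in both, where 41.2% of all protein-coding genes were. These 24 were NIPA2, CYFIP1, SPINT1, RTF1, MNS1, SMAD6, SKOR1, PAQR5, CD276, SNUPN, NRG4, PSMA4, CHRNA5, TMED3, FAH, BNC1, UBE2Q2L, AEN, GDPGP1, FAM174B, ARRDC4, SNRPA1, PCSK6 and TARSL2. Of these, 5 lay before the step at CLPX and 19 after it. There were 3 pairs of direct neighbours, NIPA2 with CYFIP1, PSMA4 with CHRNA5, and SNRPA1 with PCSK6, and 9 of the 24 had every neighbour above 0 in both clones. At the distal end SNRPA1, PCSK6 and TARSL2 were 3 of the 9 members that start beyond 100 Mb. Averaged over both clones, the median of the 24 was -0.19. For 5 of the 24, SPINT1, CYFIP1, CHRNA5, TMED3 and FAM174B, every well of both clones was below every Non-target well. SPINT1 was a member only through its Non-target wells. The median level of the 24, 5.71 FPKM, was close to that of the 318 that followed, 5.76, and 7 of the 24 had a mean under 1 FPKM, beside 31 of the 318.

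The members that did not follow were low in the other clones as well. All 24 were below 0 in C9orf89-CKO, with a median of -0.49, and 18 in RHBDD2-CKO, with a median of -0.41, where 191 and 181 of all members were. All these differences share the Non-target wells, so that a high Non-target value alone lowers each of them. TMED3, which carries cargo from the endoplasmic reticulum, had 7.08, 7.42 and 7.35 FPKM in Non-target, 5.84, 5.61 and 5.45 in MLPH-CKO, 5.08, 5.22 and 5.76 in MAGI2-CKO, 5.07, 4.99 and 5.24 in C9orf89-CKO and 5.88, 5.45 and 5.27 in RHBDD2-CKO. CHRNA5, a subunit of nicotinic acetylcholine receptors, had 9.35, 10.02 and 9.86 in Non-target, 6.86, 7.52 and 7.95 in MLPH-CKO and 8.93, 9.14 and 8.67 in MAGI2-CKO. For both genes Non-target was the highest group. SPINT1, an inhibitor of serine proteases, was the extreme case, with 67 to 141 fragments in the Non-target wells and 0 to 10 in every other well. It reached 0.5 FPKM only in the Non-target wells and is a member through them. Its low values elsewhere are thus tied to the threshold, and nothing is read from them.

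The proximal end was a small exception to the stretch. Its first 4 members, NIPA1, NIPA2, CYFIP1 and TUBGCP5, lie together between 22773063 and 23039673 in the part of 15q11 next to the centromere. Their differences were 0.26, -0.08, -0.20 and -0.08 in MLPH-CKO and -0.36, -0.13, -0.37 and 0.10 in MAGI2-CKO. The next member, MKRN3, stood at 1.86 and 2.30. MKRN3 reached 0.5 FPKM only in the wells of these 2 clones, so that it is a member through its rise and marks no edge. UBE3A, which follows it, stood at 0.44 and 0.53. NIPA2 and CYFIP1 overlap at their ends on opposite strands, where reads cannot be told apart. NIPA2 is, like NIPA1, a magnesium transporter, CYFIP1 belongs to the WAVE complex of actin assembly and TUBGCP5 to the gamma-tubulin complex. In C9orf89-CKO the same 4 genes stood at -0.71, -0.94, -1.08 and -1.19. TUBGCP5 had 4.88, 4.30 and 4.64 FPKM in Non-target, 4.24, 4.57 and 4.24 in MLPH-CKO, 5.49, 4.77 and 4.61 in MAGI2-CKO, 1.82, 2.02 and 2.06 in C9orf89-CKO and 5.46, 5.26 and 5.53 in RHBDD2-CKO. Only the C9orf89-CKO wells were clear of the others on the low side. The piecewise fit set the first 12 members, from NIPA1 to NSMCE3, apart in C9orf89-CKO, with a median of -0.35, and the remaining 385 at 0.02.

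Taking the 9 members of the list of imprinted and neighbouring genes of 15q11 to q13, the medians were 0.44 in MLPH-CKO, 0.36 in MAGI2-CKO, -0.71 in C9orf89-CKO and 0.27 in RHBDD2-CKO, where all members had 0.42, 0.37, 0.02 and 0.05. UBE3A, a ubiquitin ligase that neurons express from the maternal copy, had 6.44, 4.98 and 5.78 FPKM in Non-target, 7.66, 7.63 and 7.96 in MLPH-CKO and 9.13, 8.01 and 7.82 in MAGI2-CKO, without overlap. MKRN3, a RING finger gene expressed from the paternal copy, had 10 to 11 fragments in the Non-target wells, 63 to 78 in MLPH-CKO, 97 to 119 in MAGI2-CKO and 0 in all 3 C9orf89-CKO wells. It was a member only through the MLPH-CKO and MAGI2-CKO wells.

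The other lists held members from all along the arm. All 20 members for cell division and chromosome maintenance were above 0 in both clones, 16 of them with every well above Non-target, where 318 of all 397 members met the first rule and 217 (54.7%; 13.3% of all protein-coding genes) the second, with medians of 0.48 and 0.49 in MLPH-CKO and MAGI2-CKO. CCNB2, a cyclin of mitosis, had 26.4, 27.4 and 28.2 FPKM in Non-target, 41.8, 37.4 and 36.8 in MLPH-CKO and 38.1, 40.1 and 39.1 in MAGI2-CKO. DUT, which removes dUTP, differed by 0.37 and 0.46, and FANCI, of DNA crosslink repair, by 0.44 and 0.27. All 3 were without overlap in both clones. Of the 24 members for vesicle transport and cytoskeleton, 22 were above 0 in both, with medians of 0.56 and 0.50. VPS18, of endosome and lysosome fusion, differed by 0.50 and 0.37. ANXA2, a membrane-binding annexin, had 11.3, 12.4 and 12.3 FPKM in Non-target, 21.2, 19.9 and 18.4 in MLPH-CKO and 11.7, 11.3 and 12.3 in MAGI2-CKO, and so was higher in MLPH-CKO alone.

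Of the 12 members for translation 11 were above 0 in both clones, with medians of 0.39 and 0.31. RSL24D1, of ribosome assembly, differed by 0.44 and 0.34. Of the 17 members for ubiquitin, proteasome and protein turnover 13 were above 0 in both (0.41 and 0.34). PPIB, a peptidyl-prolyl isomerase of the endoplasmic reticulum, had 112 FPKM in the first MLPH-CKO well and 73.7 and 67.1 in the others beside 71.6, 80.1 and 73.8 in Non-target, so that among its wells only replicate 1 lay above Non-target. UBL7, a ubiquitin-like protein, differed by 0.23 and 0.34, and PSMA4, of the proteasome core, by -0.06 and -0.12 with all groups overlapping. Of the 24 members for metabolism 19 were above 0 in both (0.41 and 0.39). PDIA3, a disulfide isomerase, had 68.2, 70.5 and 71.2 FPKM in Non-target, 105, 95.4 and 100 in MLPH-CKO and 101, 90.6 and 90.2 in MAGI2-CKO.

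The 38 members for signalling and transcription had the lowest medians of the lists, 0.28 and 0.26, with 30 above 0 in both clones and 4 below 0 in both. NR2F2, a nuclear receptor, had 24.4, 22.9 and 23.7 FPKM in Non-target, 33.5, 40.0 and 40.1 in MLPH-CKO and 40.6, 40.7 and 43.9 in MAGI2-CKO, without overlap with Non-target. CSK, a kinase that restrains Src, differed by 0.07 and 0.26 with overlap, and B2M, the light chain of MHC class I, by 0.77 and 0.31 without. Of the 11 members of segmental-duplication families 10 were above 0 in both (0.60 and 0.81). ARHGAP11A differed by 0.32 and 0.40 and CKMT1B by -0.35 and 0.28, with overlap in both clones, and these are uncertain because reads can be shared with their copies. ZFAND6, a zinc finger gene among the candidates of the screen, differed by 0.25 and 0.11.

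**Figure D4:**
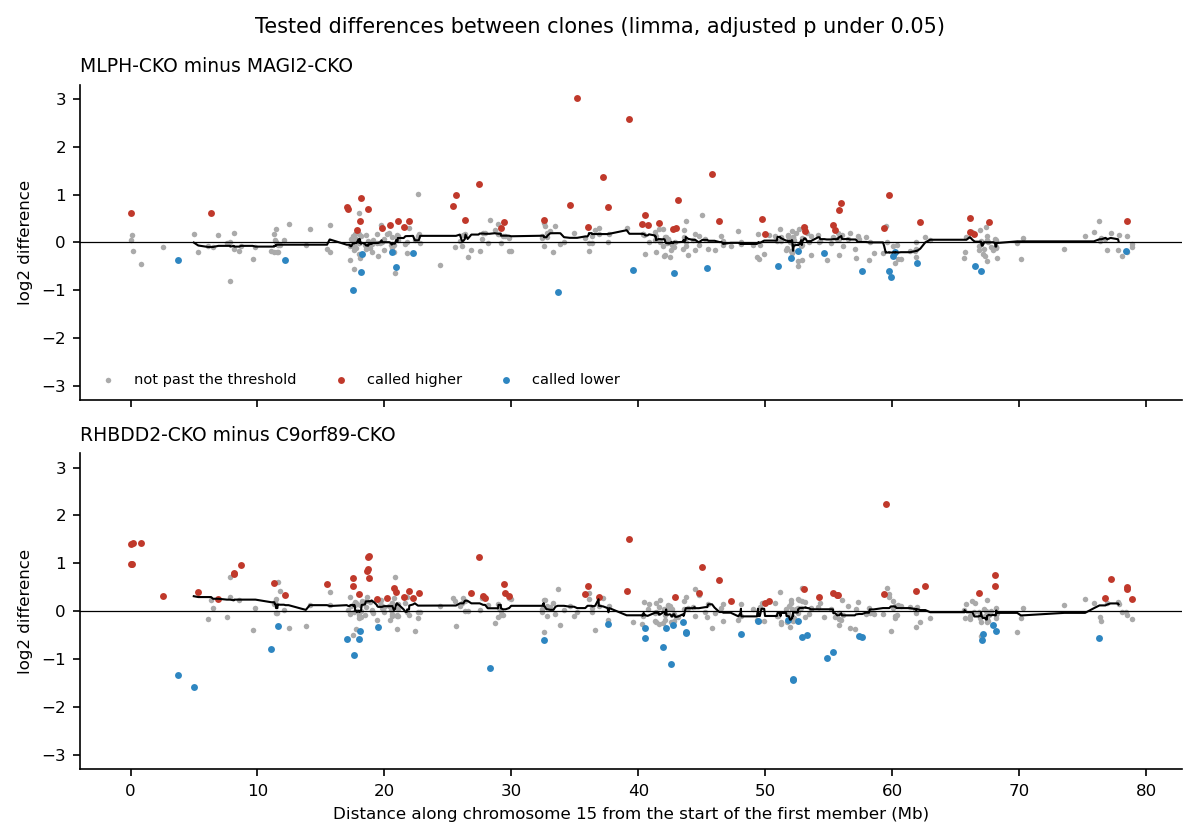
Log2 difference (vertical axis) of each member along the chromosome (horizontal axis, Mb from the start of the first member) for MLPH-CKO minus MAGI2-CKO (top) and RHBDD2-CKO minus C9orf89-CKO (bottom), coloured where limma's adjusted p was under 0.05, with the running median over 15 members in black. In the top panel the running median stays near 0 with a rise in the middle of the arm, and in the bottom panel the first 5 members stand near or above 1.

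The clones with higher values were compared with each other, a difference that the choice of members did not use. In limma's fit of all 15 libraries over 16175 genes, with Benjamini-Hochberg adjustment, 51 members (12.8%) were higher in MLPH-CKO than in MAGI2-CKO and 25 (6.30%) were lower. Over all genes tested the shares were 11.8% and 9.4%, beside which the members' shares are not far off. Their median difference was 0.02. In the lists, 4 members for cell division were called higher and 0 lower, 4 and 1 for vesicle transport, 1 and 1 for translation, 5 and 1 for protein turnover, 3 and 3 for metabolism, 4 and 2 for signalling and transcription, 1 and 1 for 15q11 to q13 and 0 and 2 for segmental-duplication families. A piecewise fit of this difference gave medians of -0.03 over the first 102 members, 0.15 over the 96 from PDIA3 to TRIP4, 43746392 to 64455303, and 0.0050 over the last 199.

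The members named next are those called with the largest differences among members with a mean of at least 1 FPKM. ALDH1A2 (chr15:57953424-58497866), which makes retinoic acid, differed most. It had 18.4, 17.5 and 15.8 FPKM in MLPH-CKO and 2.12, 2.09 and 1.94 in MAGI2-CKO, beside 10.8, 11.7 and 11.5 in Non-target, a log2 difference of 3.01 ± 0.0710 (SE, n = 3 wells each, limma adjusted p = 4.48e-11). It was thus the highest group in one clone and the lowest in the other. FOXB1, a forkhead transcription factor, had 8.08, 10.4 and 10.9 FPKM in MLPH-CKO and 3.63, 3.98 and 3.50 in MAGI2-CKO (1.37 ± 0.116). SLC27A2, which takes up fatty acids, had 5.73, 5.61 and 5.88 beside 2.59, 2.45 and 2.14 (1.23 ± 0.129). For all 3 genes Non-target lay between the clones. B2M (0.45, limma adjusted p = 0.00361), ANXA2 (0.75, 1.91e-05) and RAB11A (0.30, 0.00775) were higher in MLPH-CKO too.

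On the lower side stood MNS1, a protein of sperm flagella, at -1.03 ± 0.265 (SE, limma adjusted p = 0.0143), SLC24A1 at -0.65 ± 0.130 and CHAC1, an enzyme of glutathione breakdown, at -0.63 ± 0.130. MNS1 had 1.49, 1.21 and 1.11 FPKM in MLPH-CKO and 3.42, 2.59 and 2.17 in MAGI2-CKO. Its call was lost without MAGI2-CKO replicate 1 (limma adjusted p = 0.0597) and without MLPH-CKO replicate 3 (0.0541). CHAC1 had 9.95, 11.6 and 10.4 beside 14.2, 16.4 and 19.2, with 10.4, 12.7 and 10.3 in Non-target.

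The clones that were not named in the choice of members were compared in the same fit. RHBDD2-CKO was higher than C9orf89-CKO for 66 members (16.6%) and lower for 38 (9.57%), where 14.3% and 15% of all genes tested were called. Of the 208 members before the step at CLPX 42 were higher and 16 lower, and of the 189 after it 24 were higher and 22 lower. The fit along the chromosome gave a median of 0.36 over the first 20 members, up to OTUD7A, 0.11 over the next 162 and -0.02 over the last 215. Of the 9 members of the 15q11 to q13 list 7 were higher and 2 were lower. Of the 38 members for signalling and transcription 14 were higher and 0 lower. The other lists gave 2 and 2 for cell division, 1 and 1 for translation, 3 and 0 for protein turnover, 3 and 4 for vesicle transport, 7 and 3 for metabolism and 2 and 0 for segmental-duplication families. TUBGCP5 stood at 1.42 ± 0.0795 (SE, limma adjusted p = 5.42e-08) and NIPA1 at 1.40 ± 0.0869, with 3.84, 4.06 and 4.10 FPKM in RHBDD2-CKO and 1.26, 1.52 and 1.60 in C9orf89-CKO. NIPA2 (0.99, 1.25e-05) and CYFIP1 (0.98, 6.58e-05) passed limma's adjusted threshold as well, and so did MKRN3 (1.41, 0.000519), which has a mean under 1 FPKM and no fragments in C9orf89-CKO, so that its difference depends on the pseudocount.

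RPAP1, a protein associated with RNA polymerase II, stood on the higher side too, at 1.16 ± 0.126, with 8.95, 10.99 and 10.6 FPKM in RHBDD2-CKO and 4.24, 4.82 and 4.41 in C9orf89-CKO. On the lower side stood OCA2, a melanosome protein, at -1.59 ± 0.128, RPP25 at -1.44 ± 0.152 and SCAMP5 at -1.41 ± 0.0824. OCA2 had 0.484, 0.394 and 0.484 FPKM in RHBDD2-CKO, with 22 to 29 fragments a well, and 1.51, 1.40 and 1.82 in C9orf89-CKO. At such levels its difference hangs on the pseudocount and was -0.82 with a pseudocount of 1. SCAMP5 had 2.55, 2.94 and 2.66 beside 6.64, 7.44 and 8.15. The adjusted p-values of these 4 genes in limma ran from 8.36e-08 to 1.91e-05.

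Set against the other clones in place of Non-target, which describes the same members with other wells, the medians before and after the step at CLPX were 0.56 and 0.30 for MLPH-CKO minus C9orf89-CKO, 0.47 and 0.28 for MAGI2-CKO minus C9orf89-CKO, 0.45 and 0.26 for MLPH-CKO minus RHBDD2-CKO and 0.36 and 0.28 for MAGI2-CKO minus RHBDD2-CKO. The fit put the step of MLPH-CKO minus C9orf89-CKO between CLPX and PARP16 again, that of MAGI2-CKO minus C9orf89-CKO between PIGBOS1 and PIGB, and found none in MAGI2-CKO minus RHBDD2-CKO. In MLPH-CKO minus RHBDD2-CKO it gave 3 pieces: the first 20 members, NIPA1 to OTUD7A, had a median of 0.06 with 55% above 0, the next 191, from GOLGA8K at 32392782 to IGDCC4, had 0.46, and the last 186, from DPP8 at 65442463, had 0.26. The mean of the first piece, 0.19 with differences capped at 1, still counts as raised by the rule. These are descriptions and were not tested.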

How the data were processed

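RNA of 5 groups of HEK293T cells with 3 wells each was sequenced, 15 libraries in all, with groups and numbers as in the sample titles. The submitters' processing notes name HISAT2 2.0.5, featureCounts 1.5.0-p3 and DESeq2, and the genome build is not given in the sources used here. The authors deposited FPKM values, 1 per gene and library, made from featureCounts fragment counts and scaled by exon length and library total; this unit is not named in the sources and was worked out from the values. Each value times the length of the union of exons (GENCODE v29) was a whole number of fragments within 0.02 for 100% of the values with at most 5000 fragments. The recovered fragments gave the depth and 1 alternative.

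Members and gene lists were chosen with earlier results of these data known. Differences to Non-target chose the members and were described only, as means of log2(FPKM + 0.1) over wells. The piecewise fit was by least squares on differences capped at 1, with 1 to 6 pieces of at least 10 members chosen by the lowest BIC. A piece counted as raised when its mean lay at least 0.15 above the median of the other autosomes. MLPH-CKO against MAGI2-CKO and RHBDD2-CKO against C9orf89-CKO were tested with limma 3.58.1 (R 4.3.3), eBayes with trend=TRUE (prior df 2.62), on all 16175 genes, with Benjamini-Hochberg adjustment and a threshold of 0.05. The p-values measure the spread between wells of 1 clone. Both steps were also run on simulated data, whose outcome is not given here, and nothing is read from it. Python 3.11.15, pandas 2.3.3 and numpy 2.4.6 did the rest.

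The lists were imprinted and neighbouring genes of 15q11 to q13, cell division and chromosome maintenance, translation, ubiquitin, proteasome and protein turnover, vesicle transport and cytoskeleton, metabolism, signalling and transcription, and segmental-duplication families. The named genes were the 3 most abundant members of each list, with a mean of at least 1 FPKM the 6 with the largest rise in both clones, those below every Non-target well in both clones, and the 3 called highest and the 3 called lowest in each test, the members at the ends and steps, the 5 with the highest level, those just inside the threshold, and ZFAND6. Other genes were named after their values were seen, and 2 genes that the rule names are not reported here. Alternatives were pseudocounts of 1 and 0.01, no filter, a mean of at least 1 FPKM, quantile normalization, centring on the other autosomes, no trend, only the 6 contrasted libraries, the replicate number as a block, voom on fragments, caps and piece sizes, and each library left out. Leaving out all wells numbered 1 was chosen after seeing the data.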

Additional observations from a re-analysis of the deposited data

Results flagged for a closer look

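In MLPH-CKO against MAGI2-CKO, the members of chromosome 15 with the largest differences past limma's threshold, among those with a mean of at least 1 FPKM, were ALDH1A2 (3.01), FOXB1 (1.37) and SLC27A2 (1.23) on the higher side and MNS1 (-1.03), SLC24A1 (-0.65) and CHAC1 (-0.63) on the lower side, all as log2 differences. Over 16 alternatives ALDH1A2 stayed between 2.58 and 3.08, FOXB1 between 1.19 and 1.497 and SLC27A2 between 0.99 and 1.29, with limma's adjusted p under 0.05 in each, and MNS1 passed in 14 of 16. In RHBDD2-CKO against C9orf89-CKO, with the same limit, they were TUBGCP5 (1.42), NIPA1 (1.40) and RPAP1 (1.16), and OCA2 (-1.59), RPP25 (-1.44) and SCAMP5 (-1.41), each past the threshold in 16 of 16 alternatives. OCA2 moved most, between -1.77 and -0.82, while TUBGCP5 ran from 1.11 to 1.47, NIPA1 from 1.03 to 1.47, RPAP1 from 1.02 to 1.25, RPP25 from -1.51 to -1.33 and SCAMP5 from -1.49 to -1.17. In the other contrast MNS1 ran from -1.18 to -0.71, SLC24A1 from -0.74 to -0.51 and CHAC1 from -0.73 to -0.52. Members with a lower mean were called with differences as large as some of these: C2CD4A (2.59), CORO2B (1.43), CCDC9B (-1.004) and AP3B2 (-0.73) in MLPH-CKO against MAGI2-CKO, and SAXO2 (2.25), C2CD4A (1.497) and MKRN3 (1.41) in RHBDD2-CKO against C9orf89-CKO. CCDC9B had 0.84, 0.81 and 0.69 FPKM in MAGI2-CKO and was a member only through these wells. Its call is thus a description and no test. The same limit can hold for other members with a low mean. The members with a mean of at least 1 FPKM drew notice because the difference between the clones itself passed the test. RPP25 and SCAMP5 lie side by side, as do NIPA1 and TUBGCP5 with NIPA2 and CYFIP1. In the part of 15q15 around RPAP1, RTF1 and TYRO3 were also low in C9orf89-CKO, at -0.98 and -1.14 to Non-target beside -0.99 for RPAP1, and TYRO3 was higher in RHBDD2-CKO than in C9orf89-CKO by 0.68.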

How the results depend on the processing

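The fitted stretch began at NIPA1 and ended at TARSL2 under every setting tried, but every setting needed at least 5 members a piece, so that the few low members at either end could not have moved it. The median of the members in MLPH-CKO, 0.42, was 0.32 with a pseudocount of 1, 0.34 without the filter on low values (549 genes), 0.39 with a mean of at least 1 FPKM and 0.37 to 0.43 with single libraries left out. In MAGI2-CKO, 0.37, it was 0.31 with a pseudocount of 1, 0.34 without the filter, 0.41 when centred on the other autosomes and 0.36 to 0.40 with single libraries left out. In C9orf89-CKO, 0.016, it was 0.012 with a pseudocount of 1, 0.011 with a mean of at least 1 FPKM, 0.013 after quantile normalization, 0.010 without the wells numbered 1, 0.00089 to 0.015 with single libraries left out, and turned to -0.0083 when centred on the other autosomes. In RHBDD2-CKO, 0.052, it was 0.029 with a mean of at least 1 FPKM, 0.033 with a pseudocount of 1 and 0.037 to 0.055 with single libraries left out. Of the members called lower in MLPH-CKO against MAGI2-CKO, 25 by limma, 43 were called with the replicate block, 38 without the wells numbered 1 and 15 to 24 with single libraries left out, fewest without MAGI2-CKO replicate 2. In RHBDD2-CKO against C9orf89-CKO the members called lower went from 38 to 59 without the wells numbered 1. The cause was not tested. With the replicate block 70 members were called higher in MLPH-CKO than in MAGI2-CKO, and between RHBDD2-CKO and C9orf89-CKO 89 were called higher and 55 lower. The main fit did not take the numbers as pairs. Same-numbered wells of MLPH-CKO and MAGI2-CKO correlated at 0.226, 0.0904 and 0.0996, each the best match of its well. Their wells with different numbers ran from -0.163 to 0.0814. Same-numbered wells of RHBDD2-CKO and C9orf89-CKO correlated at 0.206, 0.0508 and 0.0586, and there replicates 2 and 3 correlated best with another number. A pairing is thus not excluded for MLPH-CKO against MAGI2-CKO, where the block gave 70 higher and 43 lower in place of 51 and 25. No scaling moved the median of the other autosomes by as much as 0.1. Depth limits members with few fragments, such as MKRN3 in Non-target and SPINT1 in the knockout clones.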
